A study of Mus musculus with 8 samples.

Results

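NAD synthesis, NAD consumption and the sirtuins were followed through 10 genes, out of 54838 gene rows in each of 2 tables: Nampt, Naprt and Nmnat1, which make NAD; Nnmt, which removes nicotinamide from the salvage route; Cd38, Bst1 and Parp1, which break NAD down; and Sirt1, Sirt3 and Sirt6, deacylases that use NAD as a co-substrate. They were picked by name, and each symbol matched 1 gene ID of GENCODE vM21. The RNA came from cultured mouse embryonic fibroblasts (MEFs), connective tissue cells of the embryo, and was sequenced after selection for poly(A) in 8 libraries, 2 for each of 4 groups.

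The first group is proliferating cells. The second, n-Sen, is cells driven into senescence with nutlin3a, which frees p53 from its inhibitor MDM2: RO3306, which blocks CDK1, first stopped them in G2, nutlin3a followed for 48 h, and 100 nM BI-2536, a PLK1 inhibitor, was present for a further 14 days to clear cells still dividing. The other groups, n-Sen control and n-Sen alkali, are such senescent cells after 24 h in HEPES-buffered medium at a normal or an alkaline pH; the labels give neither value. All 3 senescent groups share the inhibitor treatments and the time in culture, which the proliferating cells lack, so senescence and those treatments cannot be told apart. The mouse strain and the number of embryos are not stated in the labels, nor are separate cultures, so the p-values measure only the spread between these libraries, which may be technical.

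NAD is an electron carrier that is also destroyed by signalling enzymes, and cells keep it up mainly by salvage: NAMPT joins nicotinamide to a ribose phosphate to give nicotinamide mononucleotide, and NMNAT enzymes turn that into NAD. NAPRT starts the parallel Preiss-Handler route from nicotinic acid. PARP1 spends NAD on poly(ADP-ribose) at DNA breaks, CD38 and BST1 cleave it at the cell surface, and sirtuins release nicotinamide at each deacylation, so salvage and consumption are coupled. In fibroblasts NAMPT and SIRT1 have been studied as brakes on senescence, and CD38 of macrophages as a sink for NAD in ageing tissue.

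Total counts per library ran from 40608517 to 54183060. Levels are CPM (a gene's share of the library's counts, rescaled to a common total), scaled by TMM over all 8 libraries, with means ± SD (n = 2). Fold changes are log2 values ± SE from edgeR's quasi-likelihood test, fitted on the 4 libraries of each table, and a gene was called at a Benjamini-Hochberg adjusted p under 0.05 over all genes tested. Mki67, the proliferation antigen, was at 419 ± 12.4 CPM in proliferating cells and between 6.12 and 8.12 CPM in the means of the 3 senescent groups, and the p21 gene Cdkn1a was at 212 ± 18.0 CPM against 869 to 952 CPM in the senescent means, the directions the labels call for. A list of 10 fibroblast markers was present in every library, with a summed level of 16732 to 17056 CPM in proliferating and 34639 to 39550 CPM in senescent libraries. Most of that sum was Fn1, Vim and Col1a1. In the means of proliferating cells and n-Sen, Fn1 was at 5513 and 20246 CPM. Vim was at 4335 and 4625 CPM in those means, and Col1a1 at 3647 and 6493 CPM. In n-Sen 8 of the 10 were called higher and 2 lower, with Pdgfra falling from 87.9 ± 4.76 to 9.81 ± 1.28 CPM and Thy1 from 444 ± 35.5 to 381 ± 4.67 CPM, and in alkaline medium 3 were called higher and 6 lower. These fibroblast genes were named after their values were seen, and the list's part in the results was not tested. A list of 20 macrophage markers summed to between 58.6 and 67.1 CPM in proliferating libraries, 1298 and 1381 CPM in n-Sen, 1277 and 1343 CPM in n-Sen control, and 1173 and 1174 CPM in n-Sen alkali. All 20 of those genes were called higher in n-Sen, and 11 of 20 lower in alkali medium. Summed levels of 5-gene marker lists reached at most 0.333 CPM in any library for B cells, where Cd79a had counts in every group and Cd79b, Ms4a1 and Pax5 had none. They reached 0.136 CPM for T and NK cells, where Cd3e, Cd3g and Ncr1 had no count and Cd3d and Cd8a had some in n-Sen alkali, and 0.432 CPM for neutrophils, where S100a9 and Mpo had no count. Endothelial and epithelial marker lists of 5 genes each summed to 26.7 to 32.9 CPM and 63.4 to 71.1 CPM in proliferating libraries. In n-Sen they summed to 5.54 to 6.77 CPM and 4.22 to 4.44 CPM. Most of the proliferating sums was Kdr, with a mean of 22.6 ± 2.56 CPM, and Krt19, with 55.9 ± 5.31 CPM. Pecam1 and Cdh5 were at 0.215 and 0.172 CPM in proliferating means, and Epcam and Cdh1 at 0.0837 and 0.0199 CPM. In n-Sen 2 of 3 tested endothelial markers were called lower and none higher. Of 4 tested epithelial markers 3 were called lower and 1, Cdh1, higher. These genes were named after their values were seen, and the part of both lists in the results was not tested.

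The 3 members with the largest falls in n-Sen were Parp1, Sirt1 and Nampt, and their upstream sequences are shown because the 3 genes fell together. Each stretch is the 250 bases before the RefSeq transcription start (GRCm38.p6), written 5′ to 3′ on the gene's strand, and capitals mark the E-box CACGTG, the core that MYC, CLOCK and TFEB bind.
Parp1 (chr1:180568641-180568890, plus strand): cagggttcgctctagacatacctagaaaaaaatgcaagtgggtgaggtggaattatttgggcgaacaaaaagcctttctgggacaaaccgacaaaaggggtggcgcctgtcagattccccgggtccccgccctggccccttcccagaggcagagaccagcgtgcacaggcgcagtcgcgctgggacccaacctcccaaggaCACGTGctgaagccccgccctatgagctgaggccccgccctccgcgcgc
Sirt1 (chr10:63339036-63339285, minus strand): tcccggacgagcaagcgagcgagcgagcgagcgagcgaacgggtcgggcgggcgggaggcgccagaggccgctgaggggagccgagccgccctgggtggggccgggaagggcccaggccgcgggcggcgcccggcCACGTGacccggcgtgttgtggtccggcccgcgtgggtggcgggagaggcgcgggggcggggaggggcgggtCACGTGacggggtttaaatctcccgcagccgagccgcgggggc
Nampt (chr12:32820085-32820334, plus strand): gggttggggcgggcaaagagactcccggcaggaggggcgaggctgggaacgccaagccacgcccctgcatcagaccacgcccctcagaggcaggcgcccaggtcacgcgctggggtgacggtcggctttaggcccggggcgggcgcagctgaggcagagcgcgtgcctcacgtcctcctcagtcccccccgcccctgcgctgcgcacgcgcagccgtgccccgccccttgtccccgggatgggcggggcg
Parp1 holds 1 E-box, which begins 49 bases before the start, and Sirt1 holds 2, which begin 115 and 43 bases before it. The Nampt stretch has none. Among 32851 upstream stretches of the same length in the mouse table, 6.02% hold this motif, which reads the same on both strands. The GC box GGGCGG, the core bound by SP1 and read on both strands, occurs 3 times in the Parp1 stretch, 6 times in Sirt1 and 5 times in Nampt, and at least once in 32.7% of all stretches. CCAAT and the AP-1 site TGACTCA, read on both strands, present in 33.8% and 4.46% of stretches, occur in none of the 3. Such matches describe the letters only, and motifs that share letters were counted separately. The RefSeq start of Sirt1 and that of Nampt lie inside the longer GENCODE genes. Of the 10 members, 7 had an entry in this table. The others among them, Nmnat1, Cd38, Sirt3 and Sirt6, held no E-box in any stretch. The GC box occurred 1 time in each Nmnat1 stretch, 0 times in Cd38, 0 and 3 times in those of Sirt3, and 0 and 1 times in those of Sirt6. A link between these motifs and the falls was not tested.

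The comparison of n-Sen with proliferating cells asks which transcripts differ once cells are senescent. In this system 4 genes fell and 2 rose: Parp1, Sirt1, Nampt and Sirt6 were lower in n-Sen (4 of 10), Nnmt and Bst1 were higher (2 of 10), and Naprt, Nmnat1, Cd38 and Sirt3 did not pass the test. The background is wide, since 33.1% of the 19264 genes tested were called lower and 34.0% higher. The median log2 fold change was 0.018 over the 10 members and 0.0015 over all genes. Non-overlapping groups were seen for 6 of 10 members, against 83.4% of all genes tested. All 10 members passed the filter on low counts in both comparisons.

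**Figure D1:**
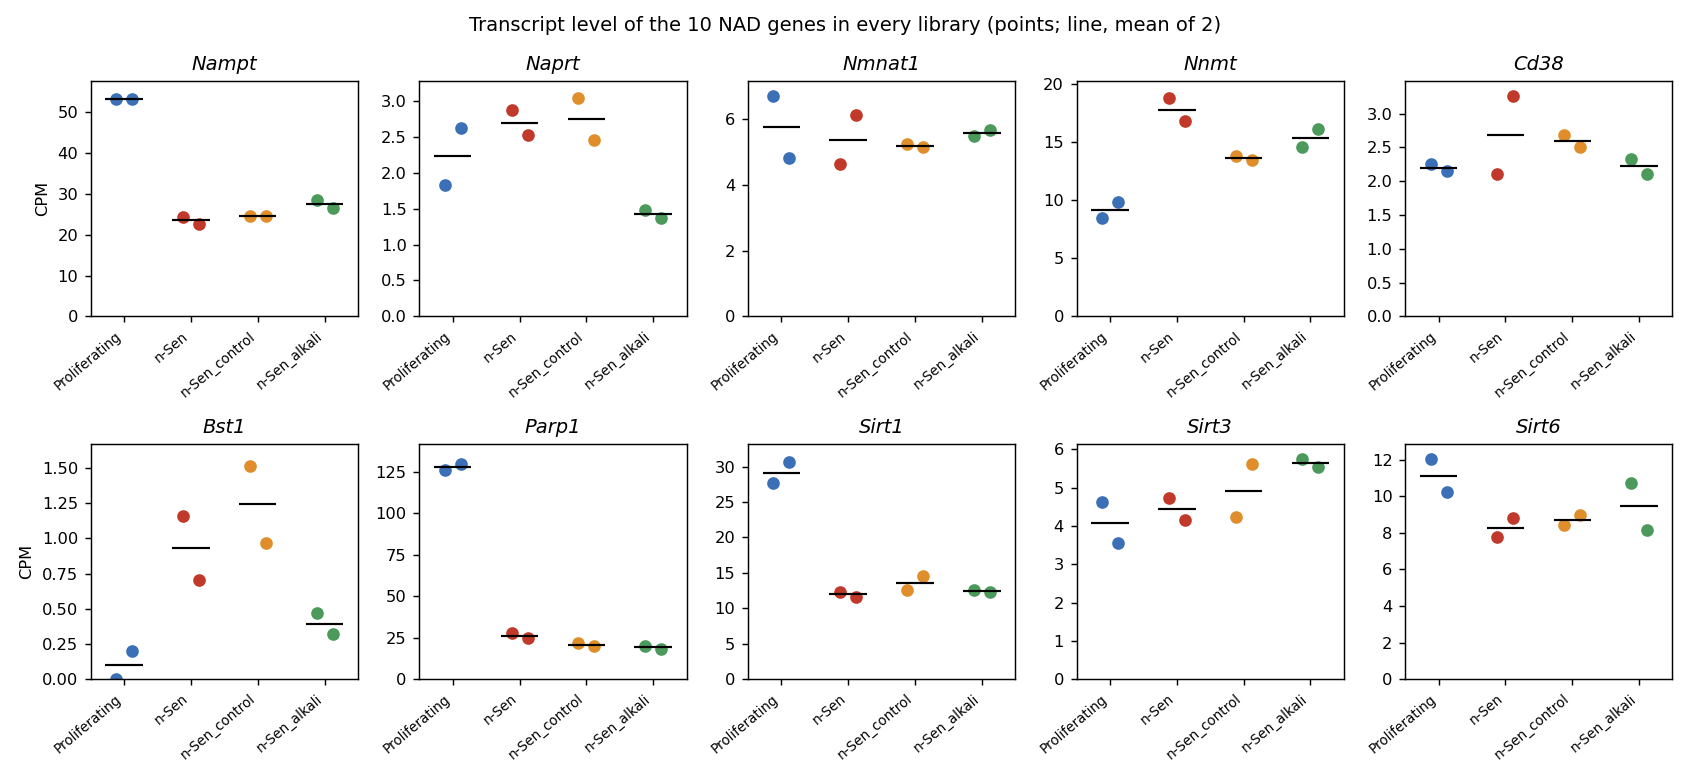
Level of each of the 10 genes in CPM (vertical axis, from 0, with its own scale per gene) in the 8 libraries; points are libraries and the line is the mean of 2. Nampt, Parp1 and Sirt1 stand above all senescent libraries in the proliferating ones, while Nnmt and Bst1 stand below them.

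The transferase that limits NAD salvage was the clearest change on the supply side. Nampt (chromosome 12, 32819545 to 32853349) was at 53.4 and 53.2 CPM in the proliferating libraries and at 24.5 and 22.6 CPM in n-Sen. The groups were far apart and the proliferating libraries nearly equal. The log2 fold change was -1.18 ± 0.077 (adjusted p 3.19e-10), and it lay between -1.22 and -1.12 when each library was left out in turn. Nampt kept a similar level in the other senescent libraries, at 24.5 and 24.6 CPM in n-Sen control and 28.4 and 26.5 CPM in n-Sen alkali.

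Neither other supply enzyme among the members was called. Naprt (chromosome 15, 75890956 to 75894481) was at 1.82 and 2.63 CPM in proliferating cells and 2.87 and 2.52 CPM in n-Sen, so the groups overlapped (0.27 ± 0.24, adjusted p 0.348). It carried fractional counts in 4 libraries and shares 277 exonic bases with Eef1d on the same strand, which leaves its level uncertain to that extent. Fractional counts also occurred for Parp1 (6 libraries), Nmnat1 and Sirt3 (4 each), and Bst1 and Sirt1 (2 each). Nmnat1 (chromosome 4, 149467572 to 149485202), the nuclear enzyme that completes NAD, was at 6.72 and 4.84 CPM against 4.63 and 6.13 CPM. Its libraries interleaved and its log2 fold change was -0.091 ± 0.19 (adjusted p 0.692), which leaves room for a change in either direction.

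The methyltransferase that drains nicotinamide moved against Nampt. Nnmt (chromosome 9, 48591877 to 48605153), which methylates nicotinamide at the expense of S-adenosylmethionine, was at 8.45 and 9.83 CPM in proliferating cells and 18.8 and 16.8 CPM in n-Sen. Both n-Sen libraries lay well above both proliferating ones (0.96 ± 0.12, adjusted p 1.60e-06). Per kb of exon the ratio of Nnmt to Nampt was 0.55 ± 0.060 in proliferating libraries and 2.43 ± 0.056 in n-Sen. That ratio was 1.78 ± 0.042 in n-Sen control and 1.80 ± 0.22 in n-Sen alkali. Per kb, Nnmt thus exceeded Nampt in all 6 senescent libraries, and in both proliferating ones it did not. This order rests on the exonic lengths used, 1.576 kb for Nnmt and 5.054 kb for Nampt, which pool all annotated exons. In CPM without that scaling Nampt was above Nnmt in every library, with means of 23.5 and 17.8 CPM in n-Sen.

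The 2 surface NAD hydrolases are neighbours on chromosome 5, with 24566 bases between Bst1 (43818885 to 43843986) and Cd38 (43868553 to 43912375). Cd38, the main NAD-cleaving ectoenzyme of many tissues, was at 2.26 and 2.15 CPM in proliferating cells and at 2.101 and 3.26 CPM in n-Sen. One n-Sen library lay below and the other above the proliferating pair, and the gene was not called (0.29 ± 0.25, adjusted p 0.319). Bst1, also known as CD157, had 0 and 10 counts in the proliferating libraries and 54.5 and 38 in n-Sen, that is 0 and 0.199 CPM against 1.16 and 0.704 CPM. The zero allows a level of up to 0.0720 CPM, counting error only. The log2 fold change was 3.09 ± 0.74 (adjusted p 0.00139), but a single library sets its size: it was 2.21 without proliferating replicate 1, and without proliferating replicate 2, where no count is left in that group, the fitted 8.46 is no measure of size.

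Bst1 is known from myeloid cells and stroma and Cd38 from leukocytes, and the macrophage list rose in the same comparison (20 of 20 called higher, median log2 fold change 4.24). The surface marker Adgre1, with the largest rise of the list, was at 1.16 ± 0.29 CPM in proliferating libraries against 48.3 ± 1.54 CPM. The part of the macrophage list in the Bst1 result was not tested. In bulk RNA, fewer cells of a type and less RNA per cell cannot be told apart. Bst1 also shares 98 exonic bases with Fbxl5 on the other strand, and the strand setting of the counting is not given in the sources used here.

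Parp1 had the largest fall of the members. The gene (chromosome 1, 180568924 to 180601254) was at 126 and 129.6 CPM in proliferating libraries and at 27.7 and 24.9 CPM in n-Sen, with the groups far apart. The log2 fold change was -2.28 ± 0.068 (adjusted p 8.99e-15), with a range from -2.35 to -2.21 when each library was left out. Its level was lower still in n-Sen control, at 21.5 and 20.1 CPM, and in n-Sen alkali, at 20.2 and 18.4 CPM. Per kb of exon Parp1 made up 44.6% ± 0.33 of the summed level of the 10 genes in proliferating libraries and 16.1% ± 0.65 in n-Sen.

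Of the 3 sirtuin members 2 fell. Sirt1 (chromosome 10, 63319005 to 63381704), a nuclear deacetylase of p53 and histones, was at 27.6 and 30.7 CPM in proliferating and 12.3 and 11.6 CPM in n-Sen libraries. The groups were well separated (-1.29 ± 0.10, adjusted p 3.30e-09). Sirt6 (chromosome 10, 81621785 to 81627797), a chromatin deacylase tied to telomeres and DNA repair, was at 12.05 and 10.2 CPM against 7.76 and 8.79 CPM, a smaller gap with no overlap (-0.42 ± 0.13, adjusted p 0.0105). Its call was lost in DESeq2 (adjusted p 0.0602) and without proliferating replicate 1 (0.0968) or n-Sen replicate 1 (0.0920). Sirt3 (chromosome 7, 140863666 to 140882309), the main mitochondrial deacetylase, was at 4.63 and 3.54 CPM against 4.74 and 4.15 CPM, with overlapping libraries (0.13 ± 0.19, adjusted p 0.575). Sirt3 shares 760 exonic bases with Ric8a and Psmd13 on the other strand. Per kb of exon the ratio of Sirt6 to Sirt1 was 0.735 ± 0.14 in proliferating and 1.33 ± 0.18 in n-Sen libraries.

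**Figure D2:**
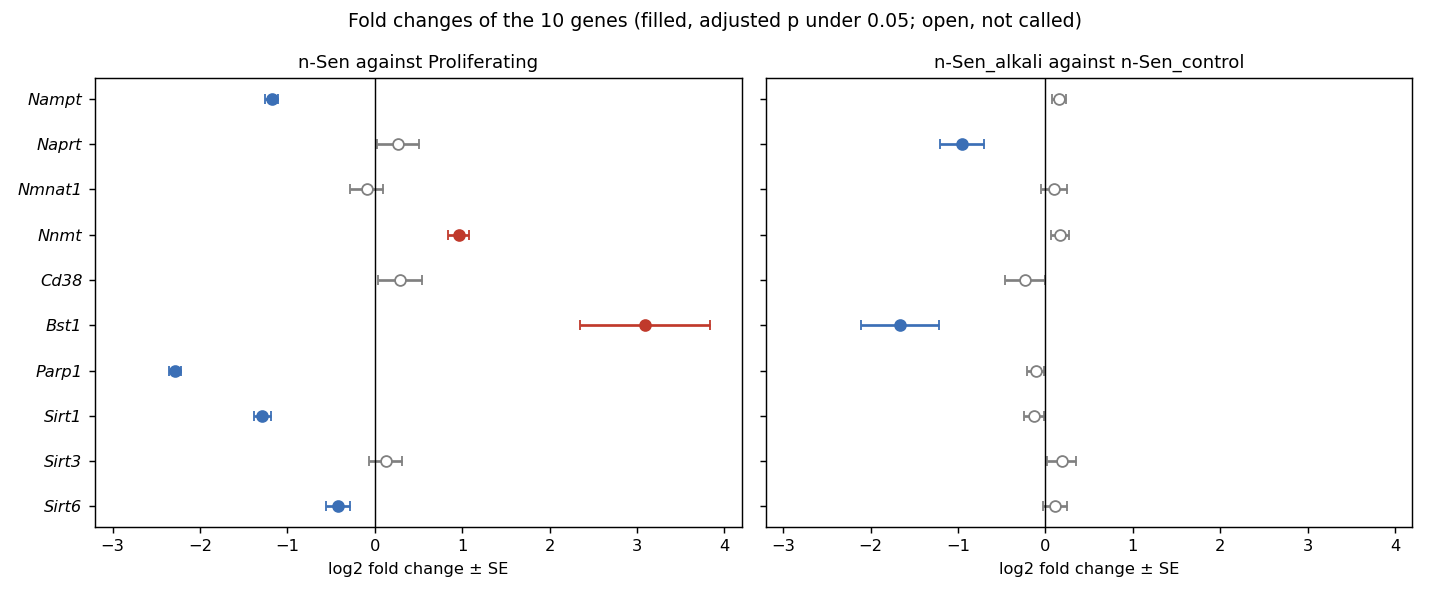
log2 fold change (horizontal axis) of the 10 genes with its SE in n-Sen against proliferating (left) and n-Sen alkali against n-Sen control (right); filled points passed an adjusted p of 0.05. On the left 6 points are filled, from -2.28 for Parp1 to 3.09 for Bst1, and 2 on the right, Naprt and Bst1.

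The comparison of alkaline with control medium is the one the series names as its purpose. In all 2 members, Naprt and Bst1, fell (2 of 10), where 10.4% of the 19129 genes tested were called lower. None was called higher by edgeR (0 of 10, background 9.58%), and none at an unadjusted p under 0.05 or in DESeq2 either. The median log2 fold change of the 10 members was -0.0072, against -0.0093 over all genes. The libraries did not overlap for 6 of 10 members, against 56.7% of all genes tested.

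Naprt, the entry enzyme from nicotinic acid, was at 3.04 and 2.45 CPM in control medium and 1.49 and 1.36 CPM in alkaline medium. Both alkaline libraries lay below every other library of the series. The log2 fold change was -0.95 ± 0.25 (adjusted p 0.00780), and the call was lost in DESeq2 (0.0665) and without n-Sen control replicate 1 (0.0863). Bst1 was at 1.52 and 0.965 CPM in control and 0.471 and 0.318 CPM in alkaline medium, that is 73.5 and 48 counts against 19 and 14. The 4 libraries did not overlap, and the log2 fold change was -1.66 ± 0.44 (adjusted p 0.00888), with the call lost without n-Sen control replicate 1 (0.189). For Bst1 the weakest adjusted p among the alternatives that kept every library lay just under 0.05. Of the macrophage markers 11 of 20 were called lower and none higher in edgeR, with a median log2 fold change of -0.29. Adgre1 went from 56.2 ± 3.25 to 37.9 ± 0.55 CPM, while 9 of the 20 were not called, Ptprc (adjusted p 0.147) and Lyz2 (0.358) among them. The part of these markers in the Bst1 result was not tested. Bst1 was the only member called in both comparisons, higher in n-Sen and lower in alkaline medium. The share of all genes called in both was not computed.

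The members that fell in n-Sen gave small values here. The log2 fold change was 0.15 ± 0.081 for Nampt (adjusted p 0.212), -0.11 ± 0.092 for Parp1 (0.464), -0.13 ± 0.11 for Sirt1 (0.484) and 0.11 ± 0.14 for Sirt6 (0.663). For Nampt both alkaline libraries lay above both control ones, and for Parp1, Sirt1 and Sirt6 the libraries overlapped. Nnmt was at 13.9 and 13.5 CPM in control and 14.6 and 16.2 CPM in alkaline medium (0.16 ± 0.10, adjusted p 0.311). Cd38, the neighbour of Bst1, was at 2.69 and 2.51 CPM against 2.33 and 2.11 CPM (-0.23 ± 0.23, adjusted p 0.546). Nmnat1 (0.098 ± 0.15) and Sirt3 (0.19 ± 0.17) were not called.

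Set in order across the 4 groups, 5 of the 10 members (Parp1, Nampt, Sirt1, Nnmt and Bst1) had both proliferating libraries apart from all 6 senescent ones. The share of all genes with this split was not computed, so the count is not read as particular to the members. In n-Sen against proliferating alone, 83.4% of all genes tested did not overlap. Levels across the 2 tables are described only. Parp1 ran from 128 CPM in proliferating cells through 26.3 in n-Sen and 20.8 in n-Sen control to 19.3 in n-Sen alkali, and only the last 2 overlapped. Nampt ran from 53.3 through 27.5 in n-Sen alkali and 24.6 in n-Sen control to 23.5 CPM in n-Sen, with no neighbours overlapping. Sirt1 followed 29.2 CPM in proliferating cells with 13.5, 12.4 and 11.97 CPM in n-Sen control, n-Sen alkali and n-Sen, whose neighbours overlapped. Nnmt had the reverse order at its ends, with 17.8 CPM in n-Sen, 15.4 in n-Sen alkali, 13.7 in n-Sen control and 9.14 in proliferating cells, and no neighbours overlapped. Bst1 was highest in n-Sen control and n-Sen, which overlapped, then n-Sen alkali, then proliferating. For Naprt only n-Sen alkali stood apart, at the bottom. For Nmnat1, Sirt3 and Sirt6 every neighbour overlapped. For Cd38 only n-Sen control and n-Sen alkali did not overlap, among means from 2.20 to 2.68 CPM.

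Compared per kb of exon, Parp1 was the most abundant member in proliferating cells, with 24.1 ± 0.51 CPM per kb, ahead of Nampt with 10.6 ± 0.027 and Nnmt with 5.80 ± 0.62. In n-Sen Nnmt came first with 11.3 ± 0.88 CPM per kb, and Parp1 (4.96 ± 0.37) and Nampt (4.66 ± 0.25) followed at similar levels. Nnmt also led in n-Sen control (8.68 ± 0.17) and n-Sen alkali (9.76 ± 0.69). In CPM without scaling by length, Parp1 and Nampt were above Nnmt in each group. Bst1 was the least abundant in every group, with 0.030 to 0.374 CPM per kb. Cd38 came next from the bottom in every group, with 0.566 to 0.689 CPM per kb. Summed over the 10 genes the level was 54.1 ± 0.74 CPM per kb in proliferating cells, 30.8 ± 1.051 in n-Sen, 27.9 ± 0.12 in n-Sen control and 28.7 ± 0.61 in n-Sen alkali.

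**Figure D3:**
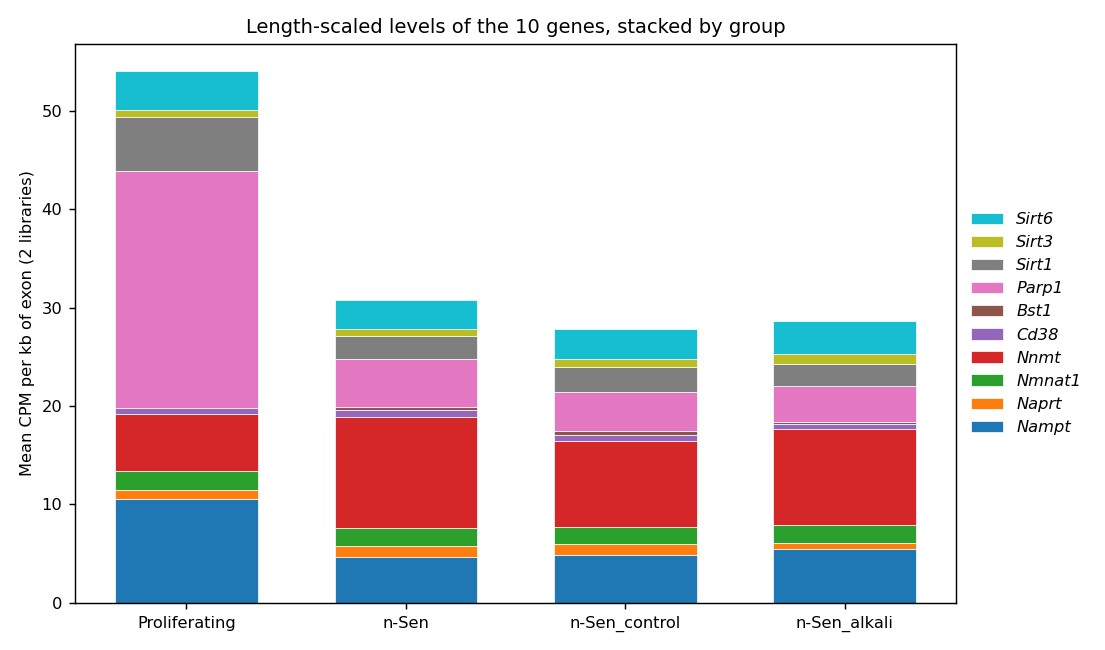
Mean CPM per kb of exon of the 10 genes, stacked for each group (vertical axis from 0, means of 2 libraries). The Parp1 segment is 24.1 CPM per kb in proliferating cells and 4.96 in n-Sen, while the Nnmt segment is 5.80 and 11.3.

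Over the 8 libraries, Nampt, Parp1 and Sirt1 had the highest Pearson correlations among members, 0.954 to 0.972 on the scale of log2(CPM + 1), and Nnmt with Sirt1 the lowest, -0.921; these follow the split between 2 proliferating and 6 senescent libraries. Outside the members, and among 9196 protein-coding genes with a mean of at least 10 CPM, the genes most like Parp1 were Hmgn1 (Pearson r 0.9997), Pclaf (0.999) and Ccnb1 (0.998). The first encodes a nucleosome-binding protein, the second a PCNA-binding factor of replication and the third the mitotic cyclin B1. Among the genes most like Sirt1 were Rif1, a replication timing and break repair factor, and Twist2 (0.998 and 0.997). The genes most like Nampt were Ahcy, the hydrolase of the methylation by-product S-adenosylhomocysteine, Usp37 and Nle1 (each 0.998). With 8 libraries in 2 clusters such values are common: 1485 genes were over 0.95 with Parp1, 1380 with Sirt1 and 1525 with Nampt.

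The rest of NAD metabolism was followed through a list of 50 genes outside the members. In n-Sen 17 of 43 tested were called higher and 12 lower, beside 34.0% and 33.1% of all genes, so both shares were near the background. The median log2 fold change was 0.21, against 0.0015 over all genes. In the supply list 5 of 16 tested rose and 8 fell, against the same 34.0% and 33.1%. That list also held genes of transport and phosphorylation. Among those called lower were the NAD kinase genes Nadk (-0.40) and Nadk2 (-1.08), which phosphorylate NAD rather than make it. Nmnat2, the Golgi and axonal counterpart of Nmnat1, rose from 0.921 ± 0.22 to 5.96 ± 0.61 CPM (2.68 ± 0.23, adjusted p 1.42e-08). Slc29a1, a nucleoside carrier that also admits nicotinamide riboside, fell from 62.9 ± 5.99 to 28.1 ± 2.002 CPM (-1.16 ± 0.082, adjusted p 9.64e-10). Qprt, which carries the de novo route from tryptophan into NAD, had no count in any of the 8 libraries, and 6 other genes of the list, of which Ido1, Tdo2, Kmo, Kynu and Haao belong to tryptophan breakdown, were too low to test. Of the tested genes of that breakdown, Ido2 (0.459 ± 0.030 CPM in proliferating and 0.0906 ± 0.023 CPM in n-Sen) and Afmid (2.81 ± 0.075 and 1.71 ± 0.20 CPM) were called lower. Acmsd was at 0.118 ± 0.031 and 0.237 ± 0.032 CPM and was not called (0.98 ± 0.74, adjusted p 0.251); Qprt and the genes of this pathway were singled out after their values were seen.

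Among the list of consumers and of enzymes that clear ADP-ribose or nicotinamide products, 9 of 23 rose and 4 fell in n-Sen, where 34.0% of all genes were called higher and 33.1% lower. The DNA-break sensor Parp2 fell with Parp1, from 23.1 ± 2.32 to 8.65 ± 0.26 CPM (-1.41 ± 0.11, adjusted p 4.11e-09). The log2 fold change was -0.83 ± 0.077 for Tiparp, a mono-ADP-ribosyltransferase induced by the aryl hydrocarbon receptor, and -0.79 ± 0.082 for Zc3hav1, an antiviral protein gene whose PARP domain is inactive; both were called. The interferon-responsive Parp14 rose from 0.667 ± 0.21 to 5.81 ± 0.27 CPM (3.14 ± 0.25, adjusted p 4.40e-09) and its partner Parp9 from 2.52 ± 0.099 to 8.70 ± 0.997 CPM (1.79 ± 0.17). Aox1, which oxidises methylnicotinamide and does not itself consume NAD, rose from 4.48 ± 1.58 to 13.7 ± 1.37 CPM (1.63 ± 0.18). These rises stood beside that of the macrophage list, whose part was not tested.

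The 4 sirtuins outside the members, named here after their values were seen, included 3 that rose in n-Sen, against 34.0% of all genes tested. The cytoplasmic Sirt2 rose from 59.4 ± 2.65 to 82.7 ± 0.34 CPM (0.48 ± 0.062, adjusted p 2.49e-06). The mitochondrial Sirt4 and Sirt5 rose by 0.86 ± 0.19 and 0.80 ± 0.16, and the nucleolar Sirt7 did not pass (0.17 ± 0.10, adjusted p 0.166) except without proliferating replicate 1 (0.0256).

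In alkaline medium 5 of 42 tested genes of the list were called higher and 7 lower, beside 9.58% and 10.4% of all genes. The median log2 fold change was -0.053, against -0.0093 over all genes. Nmnat2 fell from 20.6 ± 2.42 to 10.9 ± 0.011 CPM (-0.93 ± 0.11, adjusted p 5.63e-07), Tiparp from 98.2 ± 1.84 to 60.7 ± 0.20 CPM (-0.70 ± 0.054, adjusted p 1.28e-09) and Aox1 from 13.3 ± 0.87 to 6.96 ± 0.38 CPM (-0.94 ± 0.12, adjusted p 3.51e-06). Parp14 fell by 0.65, a call lost without n-Sen control replicate 1 (adjusted p 0.168). Nt5e, the ectonucleotidase CD73 that turns nicotinamide mononucleotide into its riboside, rose from 3.78 ± 0.16 to 6.74 ± 0.43 CPM (0.83 ± 0.16, adjusted p 0.000460). The tankyrase gene Tnks rose from 173 ± 5.07 to 208 ± 4.87 CPM (0.26 ± 0.045). Pnp, the phosphorylase that frees nicotinamide from its riboside, rose by 0.31 ± 0.075, a call lost without n-Sen control replicate 2 (adjusted p 0.0548). The ectophosphodiesterase gene Enpp1 rose by 0.22 ± 0.068, and this call was lost in DESeq2 (0.0713) and without n-Sen control replicate 2 or either alkaline library (0.0797 to 0.110). Sirt7 was called lower (-0.26 ± 0.090, adjusted p 0.0444), and the call was lost in DESeq2 (0.163), without a filter on low counts (0.0553), in a fit of all 8 libraries (0.0927) and without any one library (0.0854 to 0.184).

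Of 42 genes of the list tested in both comparisons, 8 were called in both. Of these 5 went in opposite directions (Nmnat2, Nt5e, Pnp, Parp14 and Aox1) and 3 in the same one (Slc29a1, Tiparp and Tnks). In n-Sen the call of Nt5e was lost in DESeq2 (adjusted p 0.0806). Its log2 fold change lay between -0.69 and -0.36 when each library was left out. The share of all genes called in both was not computed, so these counts are not read as particular to the list. Of all genes tested, 34.0% were called higher and 33.1% lower in n-Sen, and 9.58% and 10.4% in alkaline medium. The 2 comparisons share no libraries. For 2 of the 8 genes called in both, Nmnat2 and Tiparp, n-Sen control lay far above n-Sen. Libraries of n-Sen and n-Sen control did not overlap for Slc29a1 and Nt5e either. Their means in n-Sen and n-Sen control were 28.1 and 31.9 CPM for Slc29a1, and 4.39 and 3.78 CPM for Nt5e. Libraries of Pnp, Parp14, Aox1 and Tnks overlapped. Those groups come from different tables and were not tested against each other. Nmnat2 was at 5.96 and 20.6 CPM in those groups, and Tiparp at 25.1 and 98.2 CPM, so the fall in alkaline medium left both above their level in n-Sen. In proliferating cells Tiparp was at 44.8 ± 0.29 CPM, below n-Sen control and also below n-Sen alkali (60.7 CPM). Among the senescent groups only n-Sen lay under the proliferating level of Tiparp. Slc29a1 was called lower in alkaline medium (-0.31 ± 0.089), but not in DESeq2 (adjusted p 0.0614) or without n-Sen alkali replicate 2 (0.313).

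**Figure D4:**
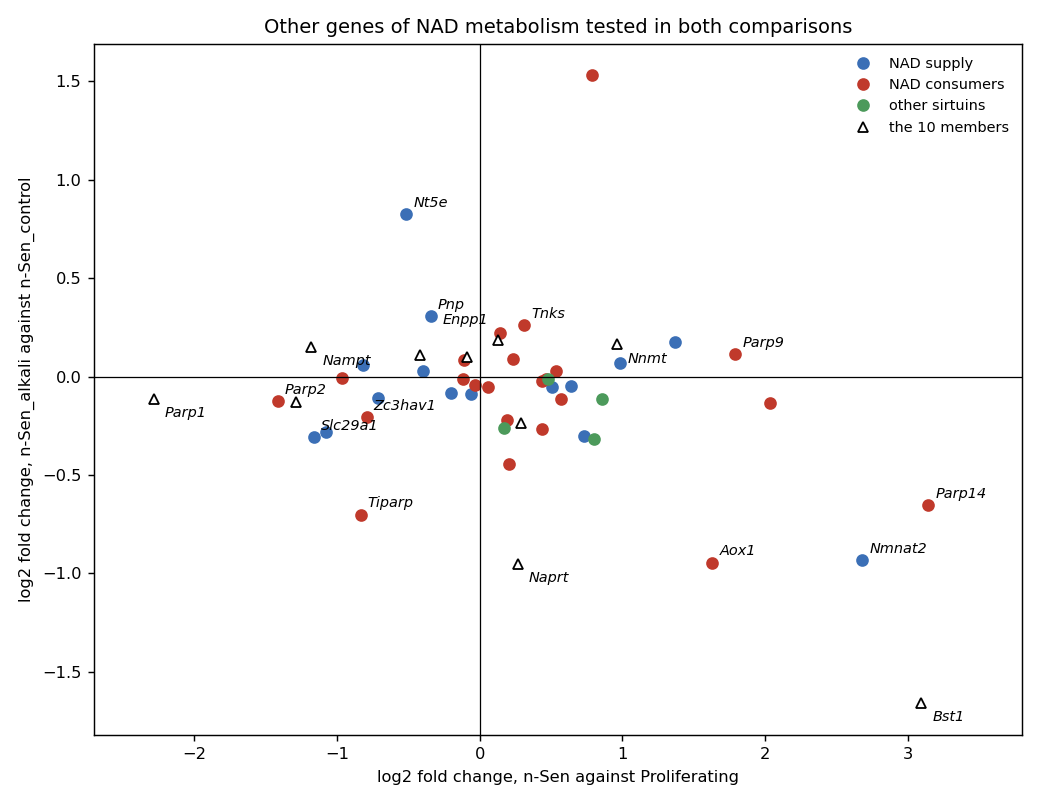
log2 fold change in n-Sen against proliferating (horizontal) and in n-Sen alkali against n-Sen control (vertical) for the 42 listed NAD genes tested in both (circles) and the 10 members (triangles). Nmnat2, Aox1, Parp14 and the member Bst1 lie at the lower right, higher in n-Sen and lower in alkaline medium, while Nt5e and Pnp lie at the upper left.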

How the data were processed

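Poly(A) libraries keep the strand through dUTP, per the labels' protocols. Named in the submitters' processing notes are mm10, DESeq2 1.34.0, HISAT2 2.1.0, Subread 2.0.2 with featureCounts, and fastp 0.23.2; strand setting, annotation release and treatment of multi-mapped reads are not given in the sources used here. The authors deposited expected counts (estimated counts per gene, between 32.7% and 33.7% of nonzero values fractional), which were rounded. Symbols, positions and exonic lengths came from GENCODE vM21 on GRCm38, which is mm10. The listed gene Nnt was left out because its symbol has 2 IDs.

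Each table was filtered with filterByExpr, scaled by TMM and tested with edgeR 4.0.16 in R 4.3.3 (quasi-likelihood, Benjamini-Hochberg); the SE is the log2 fold change over the square root of F. DESeq2 1.42.0, RLE scaling, no filter, rounding down, a replicate block, a fit of all 8 libraries and leaving out each library were alternatives. The code was tested on simulated data. Within groups, chi-square per degree of freedom was 4.63 to 7.39, so all libraries were kept as separate samples. Members and lists were chosen with earlier results of these data known. Named beside the members are up to 4 called list genes of smallest p per direction and comparison, and the 3 genes of highest correlation for the 3 members of widest range. Some items are not reported here. The motifs were chosen after the values were seen.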

Additional observations from a re-analysis of the deposited data

How the results depend on the processing

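With 2 libraries per group and members as low as 0.0995 CPM (Bst1 in proliferating cells), precision was limited by library number and, for Bst1, by depth. Over the 10 alternatives of each of the 10 members, 93 of 100 values kept direction and call in n-Sen against proliferating and 95 of 100 in alkaline against control medium. Calls of Parp1, Sirt1, Nampt, Nnmt and Bst1 in n-Sen held in every alternative. Leaving out each library, uncalled values crossed 0: in n-Sen, Nmnat1 ranged from -0.32 to 0.16, Cd38 from -0.067 to 0.58 and Sirt3 from -0.062 to 0.33; in alkaline medium, Sirt3 from -0.0027 to 0.41, Sirt6 from -0.10 to 0.30, Parp9 from -0.028 to 0.24, Sirt2 from -0.069 to 0.047 and Sirt4 from -0.23 to 0.014. In alkaline medium the members called lower numbered 1 in DESeq2 and 0 to 2 with a library left out (0 without n-Sen control replicate 1). Listed genes called higher were 3 in DESeq2 and 2 to 4 with a library left out, and those called lower 4 to 6. The cause was not tested, beyond there being fewer libraries. Without TMM the summed level was 55.9, 27.7 and 27.97 CPM per kb in proliferating, n-Sen control and n-Sen alkali. Replicate numbers are shared by the groups, and over genes the deviations of same-numbered libraries correlated at -0.052 in n-Sen against proliferating and -0.012 in alkaline against control medium. With 2 libraries per group such values cannot settle whether same-numbered libraries share a culture or a batch. With a replicate block 6455 genes were called higher and 6271 lower in n-Sen, and 2056 and 2254 in alkaline medium. The counts of members stayed at 2 and 4, and 0 and 2.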
